A study of Homo sapiens with 8 samples.

Results

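The mitotic genes of G2 and M phase are 47 genes listed by Ensembl gene ID and symbol, from the cyclins that start mitosis to the proteins that cut the daughter cells apart. They were taken by ID, and 46 of the 47 had a value in the table of 19002 genes; BUB1B was not analysed here. The cells were HepG2, an established line grown from human liver cancer tissue. Benzo[a]pyrene (BaP), a combustion product, is oxidised in such cells to metabolites that bind DNA. The groups were BaP for 12 h, its solvent dimethyl sulfoxide (DMSO) also for 12 h, and the same treatments for 24 h, with 2 arrays in each of these 4 groups, 8 in all. All 4 groups share the cell line, the culture medium and a start shortly before full confluence, and the solvent is given as 0.5% DMSO. The labels used here give no dose of BaP and do not say that cells were synchronised. The comparison asks how BaP changes transcript levels at 2 times.

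Cells that have copied their DNA enter mitosis when CDK1 binds cyclin B and is switched on by CDC25 phosphatases. Aurora and Polo kinases then build the spindle, kinetochores hold the chromosomes on it, and a checkpoint delays the next step until all are attached. CDC20 and the anaphase-promoting complex then destroy cyclin B and securin, and a contractile ring divides the cell. Most of these genes are transcribed late in the cycle, through promoters that carry a cell cycle genes homology region (CHR) and CCAAT boxes bound by NF-Y. In a culture that is not synchronised, transcript levels of this group are widely read as a measure of how many cells are in these phases. DNA damage is known to hold cells before mitosis or to lower these transcripts.

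Values are the deposited array signals on a log2 scale, so a difference of -0.50 is a 1.41-fold decrease for CDC20 at 12 h. Array medians of all genes lay between 6.64 and 6.68. Replicate arrays differed by a median of 0.0493 to 0.0900 over the mitotic genes, and by a median of 0.0773 to 0.0964 over all genes. All 46 had a mean above 4.35, the highest signal of a control transcript that is not added to samples, and 41 of the 46 were in the brightest of 3 equal classes of genes by level. DMSO 24 h replicate 2 stood apart in its 18S ribosomal RNA signal, at 11.3 against 12.6 to 13.1 on the other arrays, so values at 24 h are also given without it. The files do not pair IDs with gene names, so liver markers were not checked. The titles call the replicates biological; nothing says they came from separate cultures.

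Relative to the other genes on the arrays, part of the mitotic programme was lower in BaP at both times, by small amounts. At 12 h 15 of the 46 genes fell and 0 rose past an adjusted p of 0.05 in limma, where 4.87% of all genes fell and 3.39% rose. At 24 h 7 of the 46 fell and 0 rose, where 3.09% of all genes fell and 2.97% rose. In both directions together 8.27% of all genes passed at 12 h and 6.07% at 24 h. In the brightest class of genes, where 41 of the mitotic genes lie, 8.19% fell at 12 h and 4.97% at 24 h. The median difference of BaP minus DMSO over the 46 was -0.14 at 12 h and -0.20 at 24 h, beside 0.02 and 0.01 over all genes, and no member changed 2-fold. Fewer cells in G2 and M phase and less transcript in each such cell cannot be told apart in these bulk samples.

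The shift was broader than the calls. Both BaP arrays lay below both DMSO arrays for 30 of the 46 genes at 12 h, where 23.4% of all genes did so, and for 35 of the 46 at 24 h, where 23.5% did. Both lay above for 4 genes at 12 h and 2 at 24 h, beside 30.7% and 25.4% of all genes. The mean over the 46 genes was 9.57 and 9.62 on the BaP arrays at 12 h, against 9.77 and 9.77 on the DMSO arrays. At 24 h it was 9.54 and 9.56 in BaP, against 9.71 and 9.76 in DMSO. All 4 BaP arrays were thus below all 4 DMSO arrays in this mean. Every value is relative to the array's other transcripts. When the arrays were scaled to the spiked poly-A controls instead, the median of all genes moved to 0.47 at 12 h and -0.11 at 24 h. The median of the mitotic genes then was 0.31 at 12 h, a reversed sign, and -0.31 at 24 h. These medians are 0.165 and 0.206 below those of all genes. The same gaps hold on the deposited scale and could not differ, since the scaling moves all genes of an array alike. After it 0 of the 46 mitotic genes passed at each time, where 10.6% of all genes passed at 12 h and 0.579% at 24 h. Of all genes 0.316% fell at 12 h and 0.405% at 24 h. The poly-A controls had means of 9.61 and 9.31 on the BaP arrays at 12 h, against 9.92 and 9.91 on the DMSO arrays. The DMSO arrays at 24 h had 9.45 and 9.08, and the BaP arrays at 24 h also differed. Except in DMSO at 12 h, replicates thus differed by more in these controls than in the median mitotic gene. Whether the reversed sign at 12 h comes from this spread was not tested.

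**Figure D1:**
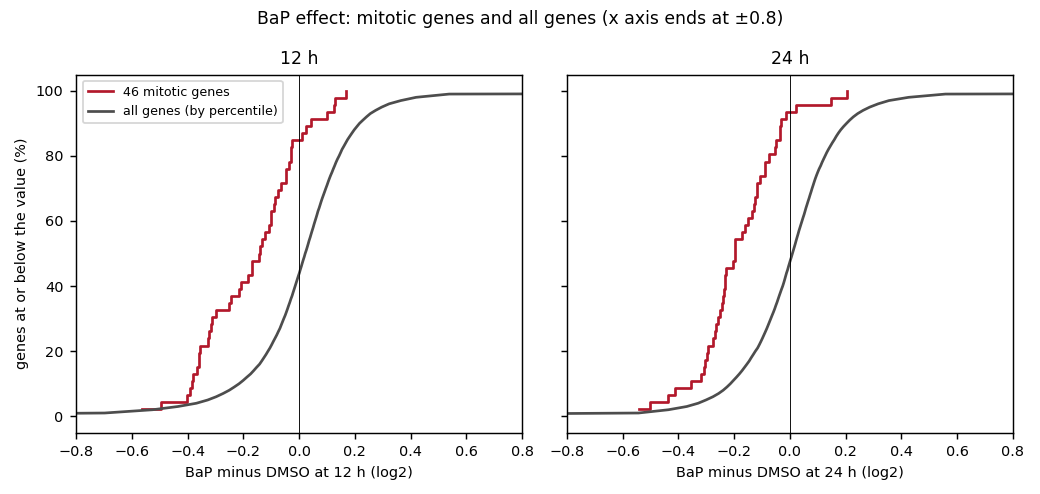
Cumulative share of genes (%) at or below each BaP minus DMSO difference (log2) at 12 h and 24 h, for the 46 mitotic genes (red steps) and all 19002 genes (grey line, drawn by percentile, x axis ending at 0.8 on either side). The red line lies left of the grey one at both times over most of its range, with medians of -0.14 and -0.20 against 0.02 and 0.01 on the deposited scale; scaling to poly-A controls moves both lines and reverses the sign of the first median.

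The number of calls depended on single arrays, because each group has 2. Most of the 15 calls at 12 h were lost without any 1 array of that time, and the calls over all genes fell as well. The median difference of the mitotic genes at 12 h was -0.12 and -0.19 without BaP 12 h replicate 1 and 2. It was -0.16 and -0.15 without DMSO 12 h replicate 1 and 2. Most or all of the 7 calls at 24 h were lost without BaP 24 h replicate 1 or 2 or DMSO 24 h replicate 2. The calls over all genes fell there as well, and the median difference of the mitotic genes was -0.19, -0.18 and -0.17. Without DMSO 24 h replicate 1 that median was -0.23, with CCNA2, AURKA and KIF20A lost and KIF23, TTK and NUF2 gained. Most calls at 24 h were also lost without any 1 array of 12 h, arrays that enter only through the shared spread. In such a fit the lone partner is assumed to vary like the other groups. The median difference moved less. Without 1 array of the same time it ran from -0.19 to -0.12 at 12 h and from -0.23 to -0.17 at 24 h. Leaving out an array of the other time cannot move it. At 24 h it was -0.17 without DMSO 24 h replicate 2. Every call kept its negative sign in all 8 fits, but leaving out 1 array could not have changed that sign. For each call both BaP arrays of that time lay below both DMSO arrays.

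Averaging the effects at 12 h and 24 h, a comparison added after the separate results were seen, uses 4 BaP and 4 DMSO arrays. In limma 21 of the 46 genes were lower and 0 higher over both times, where 7.34% of all genes were lower and 6.02% higher (13.4% in all). HMMR had the lowest difference, -0.50 ± 0.058 (adjusted p = 0.000873), with KIF20A (-0.33) and KIF11 (-0.44) also among the lowest adjusted p. PRC1, BUB1, TTK and RACGAP1 passed in this comparison and at neither time alone, and TPX2, lower at 12 h, did not pass (adjusted p = 0.0719). In the brightest class 12.4% were lower, and 19 of the 41 mitotic genes there. The number of calls fell without most single arrays, and over all genes as well. The median difference of the mitotic genes over both times was -0.17 with all arrays. It was between -0.19 and -0.15 without any 1 array, and -0.16 without DMSO 24 h replicate 2. Scaling to poly-A controls, with an all-gene median of 0.18, left 0 mitotic genes called, where 2.51% of all genes were.

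Promoters of the group were read from RefSeq (GRCh38.p14), as windows of 300 bases from 250 before to 50 after the annotated start. Of the 46 genes, 39 had a window; for genes with several, the first listed was used. A CHR (TTTGAA or TTCGAA, on either strand) was found in 28 of the 39 (71.8%), where 13.5% of 15843 protein-coding windows and 16.6% of all 27305 windows hold one. A CCAAT box (CCAAT or its complement, either strand) was found in 31 of the 39 (79.5%), beside 36.4% of protein-coding and 35.7% of all windows. Both were present in 25 of the 39 (64.1%), beside 5.6% of protein-coding windows. Among the genes lower at 12 h or at 24 h, 10 of 15 held a CHR and 12 of 15 a CCAAT box, and among the others 18 of 24 and 19 of 24 (a description, with no test). An E2F site (GGCGGGAA, either strand) was in 3 of the 39, beside 4.2% of protein-coding windows. The core of the site bound by the aryl hydrocarbon receptor (GCGTG, either strand), which BaP is known to activate, was in 20 of the 39 (51.3%), beside 44.1% of protein-coding windows. A match describes letters in these windows, not binding.

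Windows of 5 genes that fell are printed 5′ to 3′ along the transcribed strand to show this layout, with CHR and CCAAT letters of either strand in capitals. CCNB2 has 4 boxes upstream of its CHR; CDC20 has 2 boxes and 2 CHR matches; HMMR carries 2 adjacent CHR copies and an overlapping pair of boxes on opposite strands; KIF11 has 1 of each, both on the opposite strand; CCNB1 has boxes and no CHR letters here.
CCNB2, chr15:59104896-59105195, plus strand: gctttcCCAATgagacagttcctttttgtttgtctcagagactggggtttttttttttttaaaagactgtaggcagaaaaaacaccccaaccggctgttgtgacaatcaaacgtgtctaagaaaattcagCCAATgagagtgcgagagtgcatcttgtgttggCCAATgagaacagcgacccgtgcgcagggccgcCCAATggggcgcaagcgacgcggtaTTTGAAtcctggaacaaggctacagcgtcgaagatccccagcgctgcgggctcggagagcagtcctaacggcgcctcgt
CDC20, chr1:43358731-43359030, plus strand: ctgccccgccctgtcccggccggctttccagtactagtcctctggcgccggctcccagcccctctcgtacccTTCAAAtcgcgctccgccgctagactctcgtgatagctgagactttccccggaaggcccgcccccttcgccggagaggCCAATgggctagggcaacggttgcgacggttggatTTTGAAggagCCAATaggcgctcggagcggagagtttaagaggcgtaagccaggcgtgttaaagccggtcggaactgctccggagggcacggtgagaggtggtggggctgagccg
HMMR, chr5:163460382-163460681, plus strand: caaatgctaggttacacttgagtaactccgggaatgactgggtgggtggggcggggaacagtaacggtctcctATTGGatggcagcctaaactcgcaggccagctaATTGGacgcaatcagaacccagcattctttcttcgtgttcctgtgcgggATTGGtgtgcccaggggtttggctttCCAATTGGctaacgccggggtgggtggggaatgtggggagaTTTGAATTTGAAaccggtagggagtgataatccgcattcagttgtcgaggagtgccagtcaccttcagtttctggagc
KIF11, chr10:92592880-92593179, plus strand: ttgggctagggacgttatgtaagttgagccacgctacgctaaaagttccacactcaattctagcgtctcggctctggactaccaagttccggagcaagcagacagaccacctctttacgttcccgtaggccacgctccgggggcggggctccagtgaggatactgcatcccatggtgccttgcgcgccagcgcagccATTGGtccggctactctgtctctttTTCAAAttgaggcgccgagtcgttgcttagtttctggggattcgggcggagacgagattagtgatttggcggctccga
CCNB1, chr5:69166900-69167199, plus strand: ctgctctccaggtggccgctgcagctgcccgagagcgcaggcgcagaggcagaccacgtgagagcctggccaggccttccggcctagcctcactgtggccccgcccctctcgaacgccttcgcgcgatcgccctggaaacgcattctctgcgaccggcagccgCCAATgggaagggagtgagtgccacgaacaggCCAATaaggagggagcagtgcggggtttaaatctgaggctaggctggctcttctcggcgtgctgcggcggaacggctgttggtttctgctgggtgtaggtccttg

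The CHR of CCNB2 starts at -29 and that of KIF11 at -28, counted from the annotated start. In HMMR the copies start at -28 and -22, and in CDC20 at -178 and -65. Over the 39 windows the 39 CHR matches had a median position of -28, and 20 lay within the 100 bases before the start. The 64 CCAAT matches had a median position of -76, with 43 within those 100 bases.

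**Figure D2:**
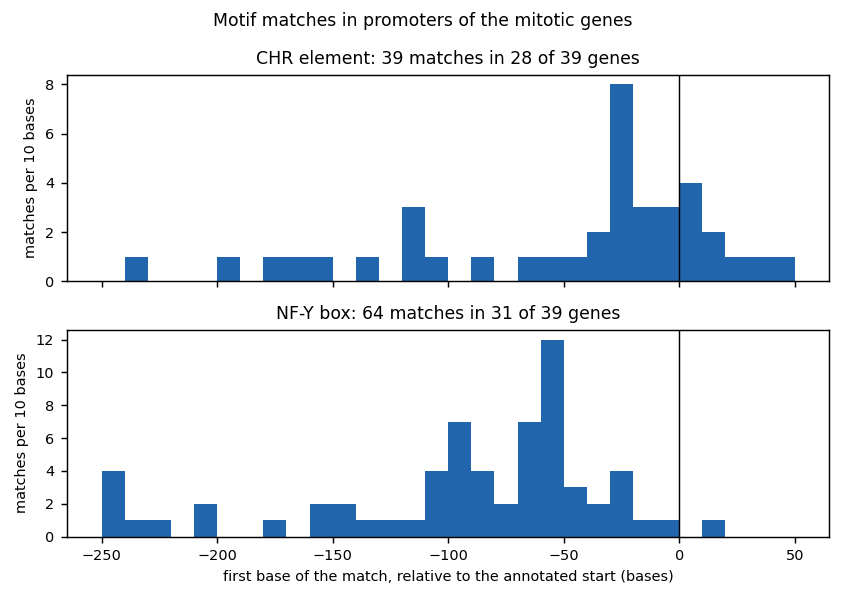
Number of motif matches per 10 bases (y axis) by distance of their first base from the annotated start (x axis, bases), for the CHR element (39 matches, upper panel) and the CCAAT box bound by NF-Y (64 matches, lower panel) in 39 promoters. CHR matches are most frequent around -28 and box matches upstream of them, with a median of -76.

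Cyclins and the CDK1 switch start the series. Of 8 genes, 2 fell at 12 h and 1 at 24 h, beside 4.87% and 3.09% of all genes. CCNB1 (ENSG00000134057_at), the main cyclin partner of CDK1 in mitosis, had 10.31 and 10.44 on the BaP arrays at 12 h, against 10.72 and 10.73 on the DMSO arrays. Its difference was -0.35 ± 0.077 (SE, adjusted p = 0.0248 in limma), with no overlap between groups. At 24 h it had 10.57 and 10.49 in BaP and 10.72 and 10.61 in DMSO, a difference of -0.14 that did not pass (adjusted p = 0.359). CCNB2 (ENSG00000157456_at), the cyclin B of the Golgi region, followed the same course. It had 10.87 and 10.81 on the BaP arrays at 12 h, against 11.20 and 11.27 on the DMSO arrays, with a difference of -0.39 ± 0.072 (adjusted p = 0.0120), and 10.94 and 11.02 in BaP against 11.15 and 11.06 in DMSO at 24 h (difference -0.12, adjusted p = 0.396). CCNA2 (ENSG00000145386_at), the cyclin of S and G2 phase, passed at 24 h. It had 10.57 and 10.67 on the BaP arrays at 24 h, against 10.92 and 10.96 on the DMSO arrays, -0.32 ± 0.072 (adjusted p = 0.0369), and 10.80 and 10.91 in BaP against 11.05 and 11.03 in DMSO at 12 h (-0.18, adjusted p = 0.174). The kinase itself differed little.

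CDK1 had 10.73 and 10.82 on the BaP arrays at 12 h, against 10.77 and 10.83 on the DMSO arrays, overlapping groups with a difference of -0.029, and 10.65 and 10.67 in BaP against 10.72 and 10.87 in DMSO at 24 h (-0.13). Neither passed (adjusted p = 0.870 and 0.390), with 95% intervals of -0.20 to 0.14 at 12 h and -0.30 to 0.045 at 24 h. FOXM1, the factor that drives transcription of many genes of this group, had 8.38 and 8.36 on the BaP arrays at 12 h, against 8.46 and 8.50 on the DMSO arrays (-0.11, adjusted p = 0.376). At 24 h FOXM1 had 8.22 and 8.22 in BaP against 8.27 and 8.34 in DMSO (-0.089, adjusted p = 0.499). BaP was below DMSO on every array of FOXM1 at both times. Its 95% intervals, -0.26 to 0.039 at 12 h and -0.24 to 0.059 at 24 h, include 0. Over both times FOXM1 had -0.099 ± 0.046 and did not pass (adjusted p = 0.207 in limma). The phosphatases CDC25B and CDC25C, which activate CDK1, had differences of 0.13 and -0.17 at 12 h and of -0.035 and -0.11 at 24 h, and CCNF, the F-box cyclin, -0.086 and -0.12, none past the threshold. The call of CCNB1 ended without any 1 of the 4 arrays of 12 h (adjusted p up to 0.163), that of CCNB2 without either BaP 12 h array or DMSO 12 h replicate 2 (up to 0.0914), and that of CCNA2 without any 1 of the 8 arrays (0.0545 to 0.166).

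**Figure D3:**
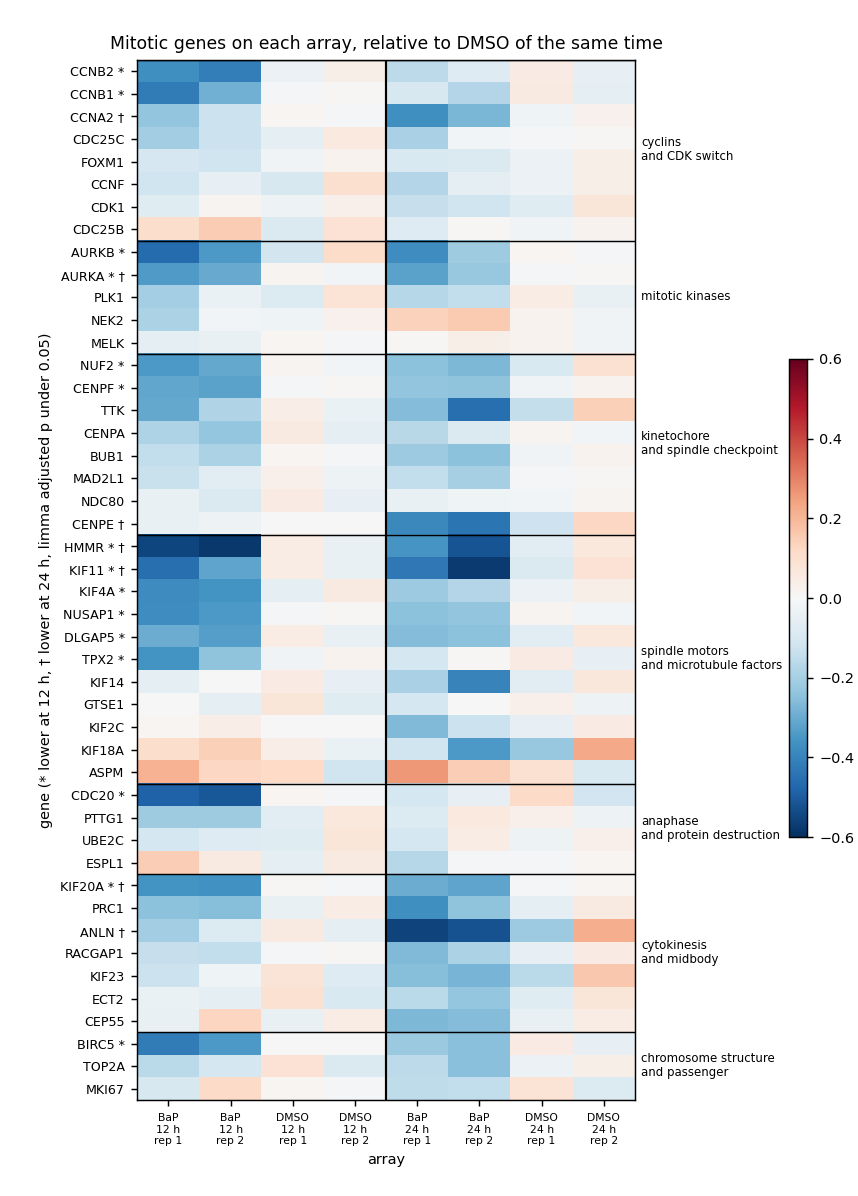
Log2 value of each of the 46 mitotic genes (rows, by role and then by difference at 12 h) on each of the 8 arrays (columns), minus the mean of the DMSO arrays of the same time; blue is below and red above that mean. The BaP columns are mostly blue at both times, with 15 genes marked as lower at 12 h and 7 at 24 h, and ASPM is red in all 4 BaP columns; under poly-A scaling 13 of the 15 have a reversed sign at 12 h.

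Of the 5 mitotic kinases 2 fell at 12 h and 1 at 24 h, beside 4.87% and 3.09% of all genes. All calls were of the Aurora kinases. AURKA (ENSG00000087586_at), which acts at centrosomes and spindle poles, was lower at both times. It had 11.24 and 11.27 on the BaP arrays at 12 h, against 11.59 and 11.56 on the DMSO arrays (-0.32 ± 0.067, adjusted p = 0.0209). At 24 h it had 11.21 and 11.30 in BaP and 11.52 and 11.54 in DMSO (-0.27 ± 0.067, adjusted p = 0.0485). AURKB (ENSG00000178999_at), the kinase of the chromosomal passenger complex, had 9.38 and 9.49 on the BaP arrays at 12 h, against 9.73 and 9.95 on the DMSO arrays (-0.40 ± 0.094, adjusted p = 0.0345). Its values at 24 h, 9.19 and 9.35 in BaP against 9.57 and 9.55 in DMSO, also did not overlap, and the difference of -0.29 missed the threshold (adjusted p = 0.117). PLK1, the Polo kinase of mitotic entry and spindle building, did not pass. It had 7.71 and 7.88 on the BaP arrays at 12 h, against 7.84 and 8.001 on the DMSO arrays, which overlap (-0.12, adjusted p = 0.457), and 7.68 and 7.71 in BaP against 7.90 and 7.81 in DMSO at 24 h (-0.16, adjusted p = 0.339). NEK2, a kinase of centrosome separation, had -0.10 and 0.15, and MELK -0.049 and 0.021. The call of AURKA at 12 h ended without any 1 array of that time (up to 0.126), its call at 24 h without any 1 of the 8 arrays (0.0792 to 0.188), and that of AURKB without either BaP 12 h array, DMSO 12 h replicate 2 or either DMSO 24 h array (up to 0.199).

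Of the 8 kinetochore and checkpoint genes 2 fell at 12 h and 1 at 24 h, beside 4.87% and 3.09% of all genes. The difference was negative for 8 of 8 at each time, beside 8345 of 19002 genes at 12 h and 8998 at 24 h, a description with no test. NUF2 (ENSG00000143228_at), a subunit of the NDC80 complex that grips microtubules, had 9.23 and 9.27 on the BaP arrays at 12 h, against 9.59 and 9.56 on the DMSO arrays (-0.33 ± 0.077, adjusted p = 0.0356). CENPF (ENSG00000117724_at), a protein of the outer kinetochore, had 7.58 and 7.57 on the BaP arrays at 12 h, against 7.88 and 7.89 on the DMSO arrays (-0.32 ± 0.063, adjusted p = 0.0175). At 24 h NUF2 had 9.48 and 9.46 in BaP against 9.63 and 9.82 in DMSO (-0.26, adjusted p = 0.0972) and CENPF 7.66 and 7.65 in BaP against 7.87 and 7.92 in DMSO (-0.24, adjusted p = 0.0620), neither past the threshold. CENPE (ENSG00000138778_at), the kinetochore motor that carries chromosomes to the spindle middle, was lower at 24 h. It had 8.91 and 8.86 on the BaP arrays at 24 h, against 9.17 and 9.42 on the DMSO arrays (-0.41 ± 0.087, adjusted p = 0.0298), and 9.09 and 9.11 in BaP against 9.14 and 9.14 in DMSO at 12 h (-0.038). Without DMSO 24 h replicate 2 its difference at 24 h was -0.29.

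The checkpoint kinases TTK and BUB1 had -0.24 and -0.17 at 12 h and -0.36 and -0.23 at 24 h. Neither passed at a single time, and both passed over both times (TTK -0.30 ± 0.077, adjusted p = 0.0347; BUB1 -0.20 ± 0.045, adjusted p = 0.0211). The checkpoint protein MAD2L1 had -0.10 and -0.17, the centromeric histone CENPA -0.21 and -0.13, and NDC80, the partner of NUF2, -0.064 and -0.034. None of these 3 passed at either time or over both. The call of CENPF ended without any 1 array of 12 h (up to 0.104), that of NUF2 without any 1 BaP array or DMSO 12 h array (up to 0.173), and that of CENPE without any 1 array other than DMSO 24 h replicate 1 (up to 0.160).

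Of the spindle motors and microtubule factors 6 of 11 fell at 12 h and 2 of 11 at 24 h, beside 4.87% and 3.09% of all genes. HMMR (ENSG00000072571_at), a hyaluronan-binding protein that also sits on spindle microtubules, had the lowest difference of all 46 genes at 12 h. It had 9.24 and 9.21 on the BaP arrays at 12 h, against 9.84 and 9.75 on the DMSO arrays, 1.48-fold lower in BaP (-0.57 ± 0.082, adjusted p = 0.00407). At 24 h HMMR had 9.84 and 9.68 in BaP and 10.14 and 10.26 in DMSO (-0.44 ± 0.082, adjusted p = 0.0192). KIF11 (ENSG00000138160_at), the motor that pushes the spindle poles apart, was also lower at both times. It had 9.41 and 9.55 on the BaP arrays at 12 h, against 9.91 and 9.82 on the DMSO arrays (-0.38 ± 0.091, adjusted p = 0.0362). At 24 h KIF11 had 9.44 and 9.29 in BaP against 9.77 and 9.95 in DMSO, 1.42-fold lower (-0.50 ± 0.091, adjusted p = 0.0167). TPX2 (ENSG00000088325_at), which activates AURKA on the spindle, had 10.92 and 11.04 on the BaP arrays at 12 h, against 11.26 and 11.30 on the DMSO arrays (-0.30 ± 0.077, adjusted p = 0.0491). Its arrays overlapped at 24 h, with 10.99 and 11.10 in BaP against 11.14 and 11.05 in DMSO (-0.050).

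The chromosome-bound motor KIF4A (-0.37, adjusted p = 0.0141), the microtubule binder NUSAP1 (-0.36, 0.00959) and the spindle fibre protein DLGAP5 (-0.31, 0.0325) fell at 12 h. At 24 h they had -0.20, -0.24 and -0.25, with no overlap of groups and adjusted p of 0.151, 0.0597 and 0.0852. ASPM, a spindle pole protein, was the member with the highest difference at each time, 0.17 and 0.20, with both BaP arrays above both DMSO arrays each time and no pass (0.383 and 0.293). KIF14, a cytokinesis motor, had -0.029 and -0.30, KIF18A, a motor that shortens microtubules, 0.13 and -0.23, KIF2C, a microtubule depolymerase, 0.025 and -0.20, and GTSE1, a microtubule-tip protein, -0.027 and -0.054. HMMR at 12 h passed in all 8 fits without 1 array (0.00532 to 0.0383), and at 24 h its call and that of KIF11 ended without BaP 24 h replicate 2 or DMSO 24 h replicate 2 (up to 0.128 and 0.117). At 12 h KIF11 and NUSAP1 were lost without any 1 array of that time (up to 0.205 and 0.0743), KIF4A without either BaP 12 h array or DMSO 12 h replicate 2 (up to 0.107), DLGAP5 without any 1 BaP array or DMSO 12 h array (up to 0.166), and TPX2 without any 1 of the 8 (0.0557 to 0.261).

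**Figure D4:**
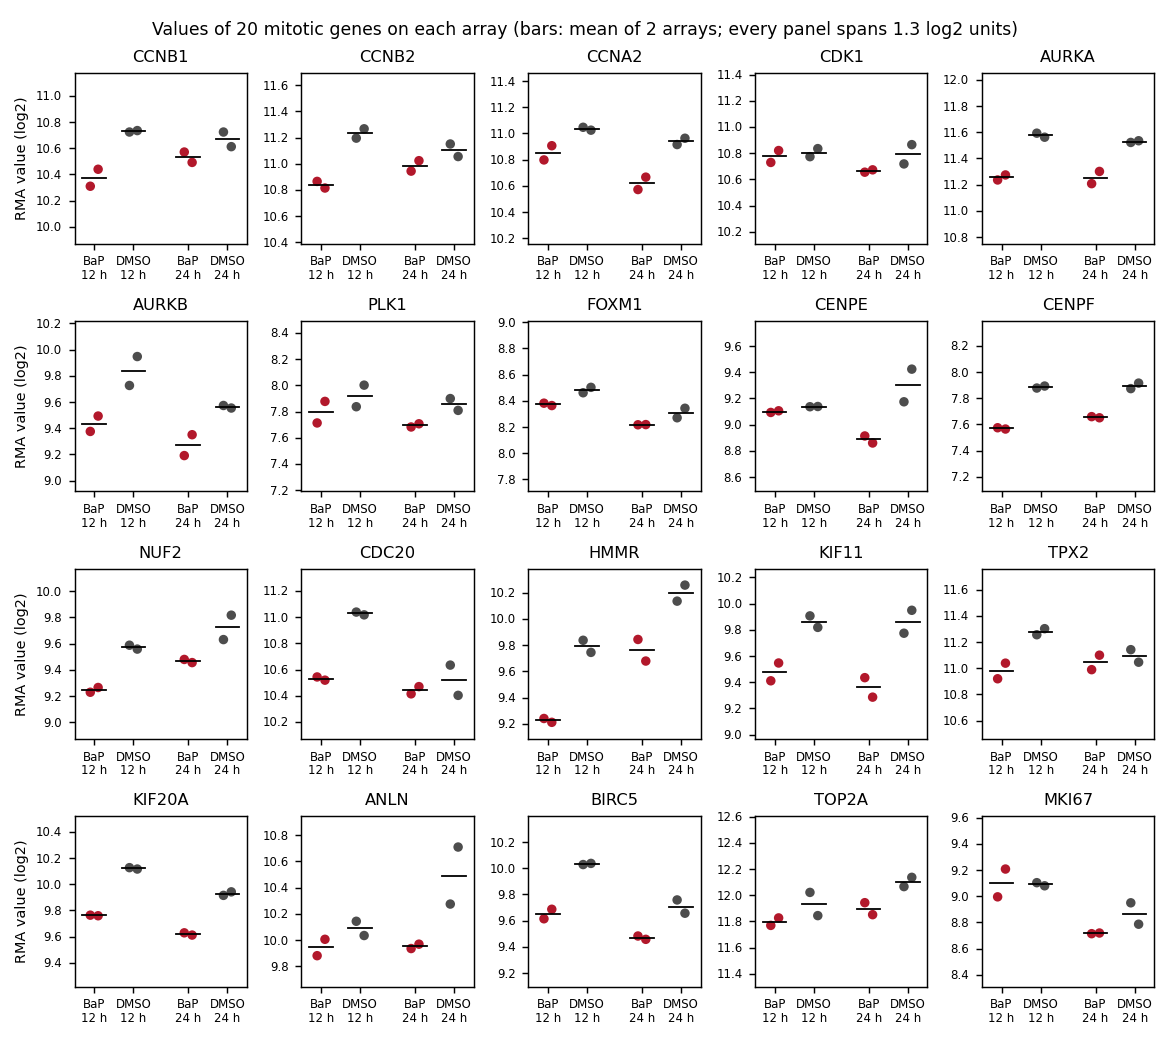
Deposited log2 value (y axis, each panel spanning 1.3 units) of 20 mitotic genes on the 2 BaP (red) and 2 DMSO (grey) arrays of each time, with bars at the group means. HMMR, KIF11, AURKA and KIF20A lie lower in BaP at 12 h and at 24 h on the deposited scale (under poly-A scaling KIF11, AURKA and KIF20A have a reversed sign at 12 h), CDC20 is lower in BaP at 12 h with overlapping groups at 24 h, and ANLN in DMSO at 24 h has 10.27 and 10.71.

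Of the 4 genes of anaphase and protein destruction 1 fell at 12 h and 0 at 24 h, beside 4.87% and 3.09% of all genes. CDC20 (ENSG00000117399_at), the activator of the anaphase-promoting complex, had 10.54 and 10.52 on the BaP arrays at 12 h, against 11.04 and 11.02 on the DMSO arrays, 1.41-fold lower in BaP (-0.50 ± 0.084, adjusted p = 0.00837). At 24 h it had 10.41 and 10.47 in BaP against 10.63 and 10.40 in DMSO, which overlap (-0.076, adjusted p = 0.680). The BaP arrays held about the same level at both times, and the DMSO arrays were lower at 24 h. UBE2C, the ubiquitin-conjugating enzyme of that complex, had -0.091 and -0.031, the securin PTTG1 -0.21 and -0.013, and the separase ESPL1 0.10 and -0.088, none past the threshold. The call of CDC20 ended without BaP 12 h replicate 2 or either DMSO 12 h array (up to 0.0602).

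Of the 7 cytokinesis genes 1 fell at 12 h and 2 at 24 h, beside 4.87% and 3.09% of all genes. Both BaP arrays were below both DMSO arrays for 4 of the 7 at 12 h and 7 of the 7 at 24 h, beside 23.4% and 23.5% of all genes. KIF20A (ENSG00000112984_at), a motor of the central spindle, had 9.76 and 9.76 on the BaP arrays at 12 h, against 10.13 and 10.12 on the DMSO arrays (-0.36 ± 0.062, adjusted p = 0.00923). At 24 h KIF20A had 9.63 and 9.61 in BaP against 9.91 and 9.94 in DMSO (-0.31 ± 0.062, adjusted p = 0.0252). Its replicates were close in every group. ANLN (ENSG00000011426_at), the scaffold of the contractile ring, had 9.94 and 9.97 on the BaP arrays at 24 h, against 10.27 and 10.71 on the DMSO arrays (-0.54 ± 0.13, adjusted p = 0.0436), and 9.88 and 10.01 in BaP against 10.14 and 10.03 in DMSO at 12 h (-0.15). The DMSO arrays of ANLN at 24 h differ by nearly as much as the groups do, and without DMSO 24 h replicate 2 its difference was -0.32. The microtubule bundler PRC1 had -0.25 and -0.30 (adjusted p = 0.0872 and 0.0536) and passed over both times (-0.28 ± 0.054, adjusted p = 0.0111). RACGAP1, a subunit of the centralspindlin complex, had -0.14 and -0.23 and passed over both times as well (-0.19 ± 0.049, 0.0385). KIF23, its motor partner, had -0.078 and -0.27, ECT2 -0.048 and -0.20, and the midbody protein CEP55 0.042 and -0.27. The call of KIF20A ended at 12 h without any 1 array of that time (up to 0.0653) and at 24 h without any 1 BaP array or DMSO 24 h array (up to 0.134), and that of ANLN without any 1 array other than DMSO 24 h replicate 1 (up to 0.170).

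Of the 3 chromosome proteins, BIRC5 (ENSG00000089685_at) (survivin, of the passenger complex) fell at 12 h, where 4.87% of all genes fell. It had 9.61 and 9.69 on the BaP arrays at 12 h, against 10.03 and 10.04 on the DMSO arrays (-0.38 ± 0.069, adjusted p = 0.0111), and 9.48 and 9.46 in BaP against 9.76 and 9.66 in DMSO at 24 h (-0.24, adjusted p = 0.0875). The common proliferation markers did not pass. TOP2A, the topoisomerase that untangles sister chromatids, had 11.77 and 11.83 on the BaP arrays at 12 h, against 12.02 and 11.84 on the DMSO arrays (-0.13, adjusted p = 0.381), and 11.94 and 11.85 in BaP against 12.07 and 12.14 in DMSO at 24 h (-0.20, 0.195). Its groups did not overlap at either time. Over both times TOP2A had -0.17 ± 0.057 and did not pass (adjusted p = 0.0908 in limma). MKI67, which coats mitotic chromosomes, had 8.995 and 9.21 on the BaP arrays at 12 h, against 9.10 and 9.08 on the DMSO arrays, overlapping (0.0099, adjusted p = 0.966), and 8.71 and 8.72 in BaP against 8.95 and 8.79 in DMSO at 24 h (-0.15, 0.385). The 95% intervals of MKI67, -0.19 to 0.21 at 12 h and -0.35 to 0.052 at 24 h, include 0; the second also includes the difference of BIRC5 at 24 h. The call of BIRC5 ended without BaP 12 h replicate 1 or either DMSO 12 h array (up to 0.0887).

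The effects at 12 h and 24 h share no array and were set side by side. The difference was negative at both times for 37 of the 46 genes (80.4%), beside 26.4% of all genes, and positive at both for 1, ASPM. Both BaP arrays were below both DMSO arrays at both times for 25 of the 46 (54.3%), beside 10.9% of all genes. The group divided into AURKA, KIF11, KIF20A and HMMR, lower at both times, 11 genes lower at 12 h alone, 3 lower at 24 h alone (CCNA2, CENPE and ANLN) and 28 past the threshold at neither. Across the 46 genes the 2 effects correlated at 0.38 (Pearson) and 0.36 (Spearman), beside 0.53 and 0.35 across all genes, which are not independent and share arrays within each time.

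Passing at 1 time alone does not make an effect particular to that time, so the difference between the effects was tested. In limma 0 of the 46 genes passed, where 0.642% of all genes did (0.51% upward and 0.132% downward). An unadjusted p under 0.05 was found for 6 of the 46, beside 2577 of all 19002 genes. CDC20 had the highest difference of effects, 0.42 ± 0.12 at 24 h against 12 h (95% interval 0.15 to 0.69, adjusted p = 0.170). ANLN had the lowest, -0.39 ± 0.18 (95% interval -0.81 to 0.017, adjusted p = 0.393). CENPE had -0.37 ± 0.12 (95% interval -0.65 to -0.094, adjusted p = 0.231). These intervals allow differences between times as large as the effects themselves.

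**Figure D5:**
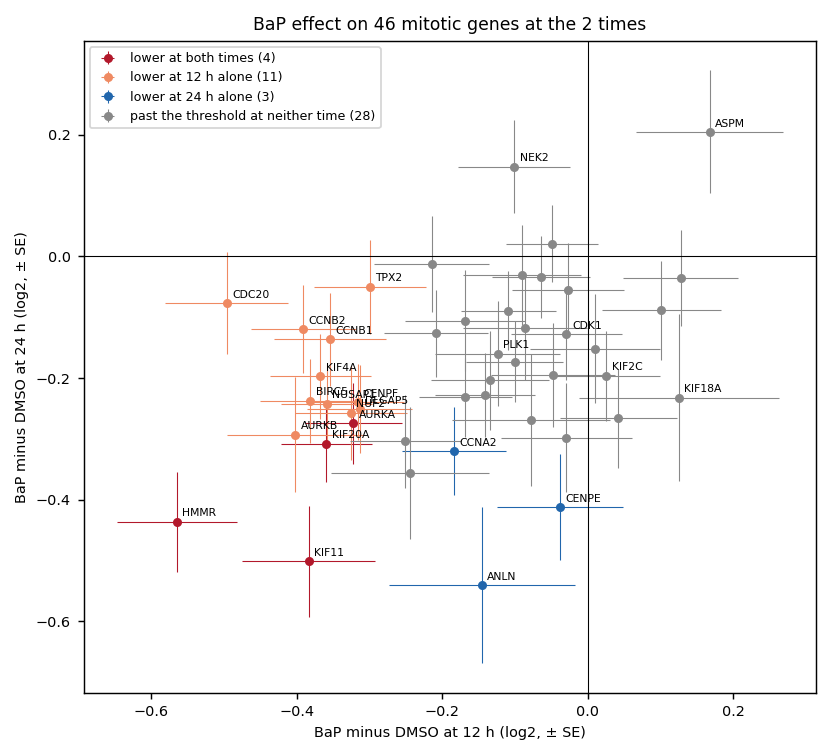
BaP minus DMSO difference (log2) of each mitotic gene at 12 h (x axis) and at 24 h (y axis), with limma standard errors as bars and colours by the calls at the 2 times. On the deposited scale 37 of the 46 points lie at the lower left, below 0 on both axes, with HMMR, KIF11, AURKA and KIF20A called at both times, and ASPM alone in the upper right; poly-A scaling reverses the sign at 12 h for 13 of the 15 genes called then.

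Between 24 h and 12 h in BaP 1 gene rose and 3 fell, where 7.21% of all genes rose and 8.14% fell (15.3% in all), so that 8.7% of the mitotic genes were called. In DMSO 1 rose and 3 fell, where 3.13% rose and 3.72% fell (6.85% in all), again 8.7% of the mitotic genes. The median over the 46 was -0.058 in BaP and -0.055 in DMSO, beside -0.033 and -0.019 over all genes. HMMR was higher at 24 h both in BaP (0.54 ± 0.082, adjusted p = 0.00337) and in DMSO (0.41 ± 0.082, adjusted p = 0.0254). ESPL1, the protease that opens cohesin rings, was lower at 24 h in both. It had 8.68 and 8.84 at 24 h against 9.37 and 9.27 at 12 h in BaP (-0.56 ± 0.082, adjusted p = 0.00271), and 8.84 and 8.86 against 9.16 and 9.27 in DMSO (-0.37 ± 0.082, 0.0341). MKI67 (-0.38, 0.0205) and CEP55 (-0.28, 0.0499) were lower at 24 h in BaP. CDC20 (-0.51, 0.0138) and BIRC5 (-0.33, 0.0298) were lower at 24 h in DMSO. The DMSO calls were all lost without DMSO 12 h replicate 1, DMSO 12 h replicate 2 or DMSO 24 h replicate 2. Some were lost without BaP 12 h replicate 1 or 2. The calls over all genes fell as well in these fits. Poly-A scaling, with an all-gene median of 0.63, turned the DMSO calls to 35 higher and 0 lower. On that scale 83% of all genes were called in DMSO and 0% were lower. Some BaP calls were lost without BaP 12 h replicate 2 or either BaP 24 h array, where calls over all genes fell as well. After poly-A scaling the BaP calls numbered 0, where 1.82% of all genes were called.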

How the data were processed

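Expression was read on Affymetrix 3' arrays from 250 ng of total RNA, per the labels' protocols. The authors deposited log2 values made by RMA, with R version 2.12.2 named in the submitters' processing notes. RMA gives all arrays 1 distribution of probe intensities, so a shift shared by all transcripts is removed. The sources used here do not name the genome build or how probes were tied to Ensembl genes. A second deposited table holds the authors' log2 differences and p-values (per the file headers, a false discovery rate is included) and 8 further columns of sample values that were not used.

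The 19002 genes were fitted with limma 3.58.1 in R 4.3.3, with a mean for each of 4 groups over 8 arrays (4 residual degrees of freedom) and no filter. Each comparison's p-values had a Benjamini-Hochberg adjustment over all genes. The 62 control probe sets were left out. Errors are moderated standard errors. The fit was tested on simulated data. A gene that did not pass may still differ, most of all by amounts as small as those of the mitotic genes. Arrays have no read depth, and 2 per group limit the precision. If replicates are technical, p-values measure only the spread between arrays.

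The members and lists were chosen with earlier results of these data known. Array values are given, within each role group, for the lowest and highest members past the threshold at each time, and for CCNB1, CDK1, PLK1, AURKA, TOP2A, MKI67 and FOXM1. Further lists by symbol (other mitotic genes, replication genes, markers) could not be matched to IDs and were not used. Alternatives were a replicate block, each array left out, 1 time alone, cyclic loess, poly-A scaling, a filter on dim genes, a trended and robust prior, array weights, an adjusted p under 0.01 and the deposited table.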

Additional observations from a re-analysis of the deposited data

Results flagged for a closer look

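KIF2C, which takes apart microtubule ends at centromeres, had BaP arrays on opposite sides of DMSO at the 2 times. It had 9.62 and 9.65 on the BaP arrays at 12 h, against 9.61 and 9.61 on the DMSO arrays, and 9.38 and 9.52 in BaP against 9.60 and 9.70 in DMSO at 24 h. The effect at 24 h minus that at 12 h was -0.22 (95% interval -0.46 to 0.017) and did not pass in limma (adjusted p = 0.409). At 12 h the groups were 0.025 apart, less than the standard error. With 2 arrays per group no array could be tested as an outlier.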

How the results depend on the processing

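Changes at 12 h, at 24 h and over both times kept their direction, and their counts stayed within 1.5 times, under cyclic loess (14, 9 and 21) and the filter on dim genes (15, 10 and 22). Of all genes 5.23%, 3.35% and 7.79% fell under cyclic loess, and 6.42%, 4.25% and 9.33% under the filter. A trended and robust prior gave 16, 15 and 25 of the 46 genes, where 5.95%, 4.42% and 8.63% of all genes fell. With time in BaP that prior gave 7, where 18% of all genes changed. Array weights gave 4 at 24 h and the 4 arrays of that time alone gave 1, where 2.16% and 1.43% of all genes fell. A stricter threshold, 0.01 on the adjusted p, left 4 at 12 h, 0 at 24 h and 10 over both times. With time it left 2 in BaP and 0 in DMSO, and the share of all genes past it is not given here. At 24 h 25 of 46 had an unadjusted p under 0.05 in limma, beside 4009 of all 19002 genes. The authors' deposited table holds the same log2 differences for these genes and gave 15 and 7, so it is not an independent check. Poly-A scaling gave 0 at 12 h, at 24 h, over both times and with time in BaP. Of all genes 10.6%, 0.579%, 2.51% and 1.82% were called there. The medians of the mitotic genes were 0.31 at 12 h and -0.31 at 24 h. With time in DMSO poly-A scaling gave 35, where 83% of all genes were called. It moves all genes of an array alike, and it turned the differences at 12 h to 0.096 for CCNB1, 0.059 for CCNB2, 0.13 for AURKA, 0.048 for AURKB, 0.13 for CENPF, 0.067 for KIF11, 0.091 for KIF20A, 0.083 for KIF4A, 0.15 for TPX2, 0.092 for NUSAP1, 0.069 for BIRC5, 0.14 for DLGAP5, 0.12 for NUF2.

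Leaving out 1 array at a time gave 1 to 13 genes (12 h), 0 to 7 (24 h), 14 to 21 (both times), 2 to 3 (time in BaP) and 0 to 5 (time in DMSO), and medians of -0.19 to -0.12 (12 h) and -0.23 to -0.17 (24 h). No gene passed for the difference between times in any of these limma fits (6 at an unadjusted p under 0.05 with all arrays). Replicate numbers do not settle a pairing, with deviations of equally numbered arrays correlating at -0.05 to 0.14. With a replicate block the counts were 14, 7, 0, 4, 4 and 22. Their order is 12 h, 24 h, difference, time in BaP, time in DMSO and both times. In that order the block called 8.84%, 6.83%, 0.795%, 16.1%, 7.3% and 14.1% of all genes. It ended the calls of TPX2 at 12 h (adjusted p = 0.0535) and AURKA at 24 h (0.0523) and added PRC1 at 24 h (0.0409) and, over both times, ASPM as higher in BaP (0.19, adjusted p = 0.0449).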
